A study of Mus musculus with 6 samples.

Results

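The genes described are 10 transcription factors of mesenchymal cells, taken by symbol: the paralogs Twist1 and Twist2, Snai1 and Snai2, Zeb1 and Zeb2, Prrx1 and Prrx2, and Osr1 and Osr2. They are 10 of 38924 genes counted, each symbol matched 1 gene, and all 10 were among the 17116 genes tested. Poly(A) RNA was sequenced from 6 mouse libraries in 5 groups. Satellite cells, the muscle stem cells, were taken in the resting state (QSC, 1 library each of mouse 1 and mouse 3). The QSC libraries are titled QSC-1 and QSC-3, and each number is read here as a mouse. Satellite cells were also taken in the activated state (ASC, 1 library, labelled Pax7-plus and p1). Fibroblasts reprogrammed into induced myogenic progenitors (iMPCs) were sorted on a nuclear GFP reporter of Pax7, giving 1 Pax7-positive and 1 Pax7-negative library. The last library was of mouse embryonic fibroblasts (MEFs). Per the labels' growth protocol, iMPC medium holds fetal bovine serum, serum replacement and basic FGF, doxycycline was used during reprogramming, and expanded cultures grew without it in forskolin (5 µM), RepSox, which blocks TGF-beta receptor signalling (5 µM), and an inhibitor of GSK3 (3 µM). The labels used here do not state strain, sex, age, the isolation of satellite cells, the medium of ASC and MEFs, the passage of the iMPCs, or whether these began as embryonic or tail-tip fibroblasts.

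Twist proteins are basic helix-loop-helix factors that dimerise with E proteins and bind E-boxes. Snail and Zeb proteins are zinc finger repressors of E-boxes and, with Twist, are the best known inducers of epithelial-to-mesenchymal transition, in which E-cadherin is silenced. Prrx1 and Prrx2 are paired-related homeodomain factors of limb and craniofacial mesenchyme, and Osr1 and Osr2 are odd-skipped zinc finger factors of intermediate and limb mesoderm, where Osr1 marks progenitors of muscle connective tissue. In muscle, Twist1 is known to inhibit MyoD, and Snai1 and Snai2 are known to compete with MyoD for E-boxes.

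Library totals ran from 20859611 to 29279686 counts. The QSC libraries stood apart from each other. Summed over 6 matched erythroid markers they held 1300.0 CPM in mouse 1 and 20.1 in mouse 3, and over 10 endothelial markers 190.4 and 55.1 CPM. CPM here are counts scaled to library size, corrected for composition by the TMM method. Summed over 12 markers of fibroblasts and connective tissue, the level was 1218 and 726 CPM in QSC of mouse 1 and mouse 3, 633 in ASC, 2001 in Pax7-positive iMPCs, 7945 in Pax7-negative iMPCs and 15640.0 in MEFs. Over 9 markers of the muscle lineage, not of progenitors alone, it was 4797, 4984, 9926, 5564, 4177 and 76.3 CPM in the same order. This sum is weighted by abundant genes, with Chrna1, Des and Myog at 3043, 2665 and 2055 CPM in ASC, and single markers differed from it. Pax7 was at 34.5 and 159.7 CPM in QSC, 19.8 in ASC, 37.8 in Pax7-positive iMPCs and 6.25 in Pax7-negative iMPCs. Myf5 was at 84.15, 124.2, 28.5, 3.57 and 1.05 CPM in the same libraries. The MEF library had 0 counts of Pax7. In bulk samples, fewer cells of a type and less RNA per cell cannot be told apart.

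**Figure D1:**
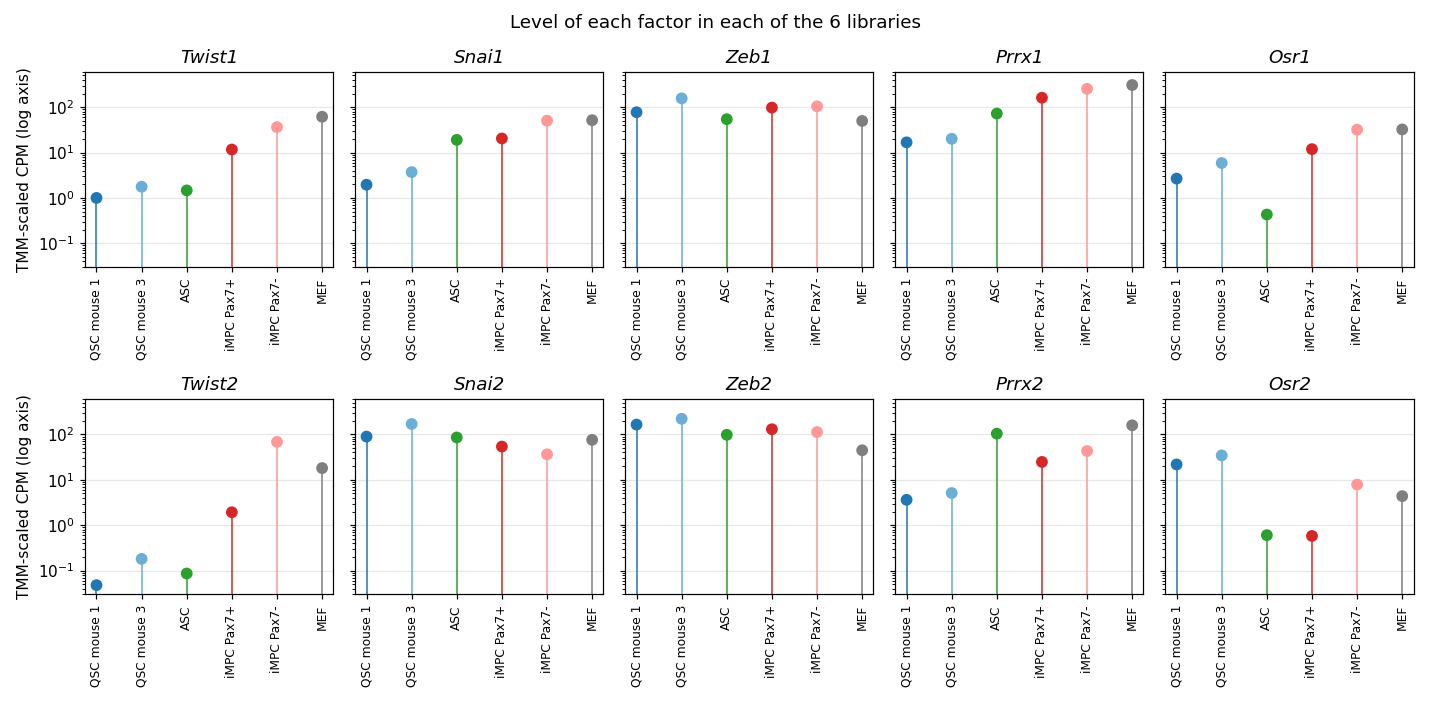
TMM-scaled CPM on a log axis for each of the 10 factors, 1 point per library, with the first paralog of each pair above the second. Twist1, Twist2, Snai1, Prrx1 and Prrx2 were lowest in QSC of mouse 1, whereas Snai2, Zeb1, Zeb2 and Osr2 were highest in QSC of mouse 3 on this scale.

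Each group was tested against QSC with edgeR's quasi-likelihood test, and a factor is said to have risen or fallen where its p, adjusted over all genes by Benjamini and Hochberg's method, was below 0.05. Twist1, Twist2, Snai1, Prrx1 and Prrx2 rose in Pax7-positive iMPCs, Pax7-negative iMPCs and MEFs, and Osr1 joined them in the last 2. Snai2 and Zeb1, already abundant in QSC, passed the test in no comparison, and Zeb2 passed it in 1, downward in MEFs. Osr2 fell in Pax7-positive iMPCs, ASC and MEFs. In ASC, Snai1, Prrx1 and Prrx2 rose and Osr1 and Osr2 fell.

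The comparison of each group with QSC sets it against the resident stem cell of muscle. In Pax7-positive iMPCs, 5 of 10 factors rose and 1 fell, where 20.6% of all 17116 genes passed the test in either direction (11.3% up and 9.31% down). Pax7-negative iMPCs had 6 up and 0 down, against 18.6% of all genes in either direction (12.1% up and 6.57% down). The 0 downward is by edgeR's quasi-likelihood test; Osr2 and Snai2 were lower at an unadjusted p of 0.0454 and 0.0156, and DESeq2 called 1 factor, Snai2, down. ASC had 3 up and 2 down, against 20.1% (11.8% and 8.24%), and MEFs 6 up and 2 down, against 19.4% (11.3% and 8.03%). Scaling libraries by their totals alone raises the median of all genes against QSC by 0.59 to 0.71 (log2). ASC then had 3 up and 1 down, against 13.8% of all genes in either direction. MEFs had 6 up and 0 down, against 13.4%. Twist2 had to differ, since it entered the test only through libraries where it was high; without it, 4 of 9 rose in Pax7-positive iMPCs, 5 in Pax7-negative iMPCs, 3 in ASC and 5 in MEFs. The median log2 fold change of the 10 factors, Twist2 included, was 1.99 in Pax7-positive iMPCs, 3.10 in Pax7-negative iMPCs, -0.50 in ASC and 3.49 in MEFs, beside -0.03, 0.15, 0.00 and 0.00 over all genes tested. All 25 calls kept their direction against each QSC mouse taken alone. The calls were made against these same mice, so this is no separate check. The 4 comparisons share the QSC libraries, and every lone library was assumed to vary as the QSC pair does.

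**Figure D2:**
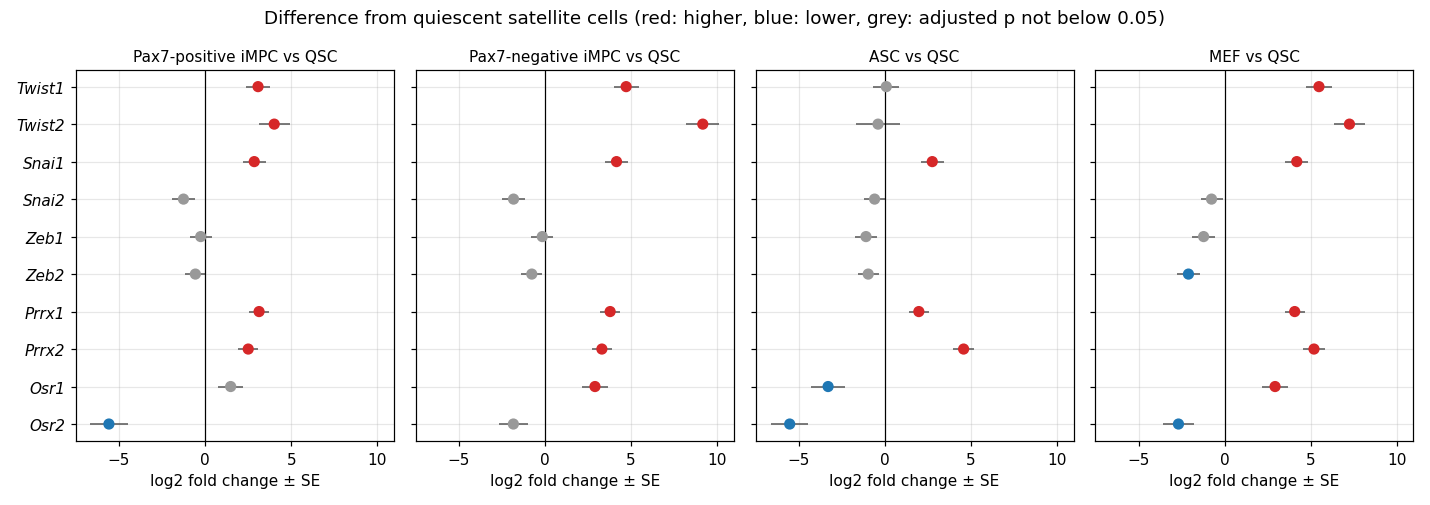
Log2 fold change of each factor against QSC, with bars of ± 1 SE from edgeR's quasi-likelihood fit, in the 4 comparisons on a common axis; colours mark the direction of calls at an adjusted p below 0.05. Snai2, Zeb1 and Zeb2 lie to the left of 0 in all 4 panels, with 1 call among them, Zeb2 in MEFs; under library size scaling Zeb1 moved to the right of 0 in both iMPC fractions and Zeb2 in Pax7-positive iMPCs.

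RefSeq's table of windows ahead of gene starts (GRCm38.p6) held 9 windows for 6 of the 10 factors: Twist1, Twist2, Snai1, Zeb2, Prrx1 and Prrx2. The 250 bases ahead of the start are shown for the 5 factors that rose in both iMPC fractions and in MEFs, 5′ to 3′ on the gene's own strand, since these are the sequences that members moving together could be compared on. Capitals mark the E-box CAGGTG, read as CACCTG on the other strand, which Snail and Zeb proteins are known to bind. The windows are chr2:167537945-167538194 (plus strand) for Snai1, chr12:33957421-33957670 (plus) for Twist1, chr1:91801211-91801460 (plus) for Twist2, chr1:163313651-163313900 (minus) for Prrx1 and chr2:30845117-30845366 (plus) for Prrx2.
Snai1: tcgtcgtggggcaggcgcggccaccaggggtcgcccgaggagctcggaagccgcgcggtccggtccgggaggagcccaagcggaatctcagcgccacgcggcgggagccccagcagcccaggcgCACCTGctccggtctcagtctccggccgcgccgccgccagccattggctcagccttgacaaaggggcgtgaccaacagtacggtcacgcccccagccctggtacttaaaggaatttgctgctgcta
Twist1: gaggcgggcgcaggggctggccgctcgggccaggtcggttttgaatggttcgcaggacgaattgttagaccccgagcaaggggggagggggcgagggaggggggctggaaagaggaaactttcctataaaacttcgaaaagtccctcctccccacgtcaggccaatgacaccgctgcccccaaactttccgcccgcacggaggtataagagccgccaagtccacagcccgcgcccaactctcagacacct
Twist2: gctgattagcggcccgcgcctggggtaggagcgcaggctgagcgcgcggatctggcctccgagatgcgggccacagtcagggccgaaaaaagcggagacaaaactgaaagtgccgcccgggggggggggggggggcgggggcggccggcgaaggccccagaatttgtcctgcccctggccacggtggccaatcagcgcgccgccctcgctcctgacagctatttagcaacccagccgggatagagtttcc
Prrx1: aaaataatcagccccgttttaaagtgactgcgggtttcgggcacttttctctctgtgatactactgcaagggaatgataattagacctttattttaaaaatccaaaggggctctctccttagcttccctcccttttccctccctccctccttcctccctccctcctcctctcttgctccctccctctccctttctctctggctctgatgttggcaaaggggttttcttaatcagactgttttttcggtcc
Prrx2: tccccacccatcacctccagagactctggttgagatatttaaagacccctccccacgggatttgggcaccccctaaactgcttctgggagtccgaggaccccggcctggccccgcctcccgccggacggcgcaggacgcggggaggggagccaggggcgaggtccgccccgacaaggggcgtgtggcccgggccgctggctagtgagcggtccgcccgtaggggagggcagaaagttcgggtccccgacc

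The Snai1 window alone held the motif, as CACCTG beginning at position -126 from the start. In all, 1 of the 9 windows held it, beside 17.2% of 32851 windows of the same length. The broader CANNTG, which overlaps it, was also in 1 of 9, the same site, beside 66.2% of all windows. Zeb2 held 4 of the 9 windows, and some of these overlap, so they are not 9 separate promoters. A match is a description of letters and not a binding site. Guanine and cytosine made up 70.0% of the Snai1 window, 62.4% for Twist1, 68.8% for Twist2, 70.0% for Prrx2 and 47.6% for Prrx1, around a median of 52.4% over all windows. Prrx1 was thus the one of these 5 below the median, with 4 CpG dinucleotides against 27 in the Snai1 window.

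Twist1 (ENSMUSG00000035799), an inhibitor of MyoD, stood at 1.0 and 1.76 CPM in QSC of mouse 1 and mouse 3, 1.47 in ASC, 11.7 in Pax7-positive iMPCs, 36.4 in Pax7-negative iMPCs and 61.6 in MEFs. The satellite cell libraries, quiescent and activated, formed a low set, and the 3 others lay above them without overlap. Twist1 rose by 3.07 ± 0.70 (log2, SE) in Pax7-positive iMPCs, 4.71 ± 0.72 in Pax7-negative iMPCs and 5.47 ± 0.74 in MEFs (edgeR, adjusted p = 0.00511, 0.000261 and 7.83e-05). In ASC the difference was 0.08 ± 0.75.

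Twist2 (ENSMUSG00000007805), the dermal and craniofacial paralog of Twist1, had 1 and 4 counts in QSC, 2 in ASC, 60 in Pax7-positive iMPCs, 2032 in Pax7-negative iMPCs and 485 in MEFs. On the CPM scale these were 0.0477, 0.181, 0.0862, 1.93, 68.6 and 18.1. On this scale it was the 1 factor with its highest level in Pax7-negative iMPCs; in RPKM, Snai1, Zeb1 and Osr1 were highest there too. Against the 5 pooled QSC counts it was 591-fold higher in Pax7-negative iMPCs (exact 95% counting interval 253 to 1823), 156-fold in MEFs (66.5 to 483) and 16.6-fold in Pax7-positive iMPCs (6.75 to 53.1). The fitted log2 differences were 9.16 ± 0.96, 7.24 ± 0.91 and 4.01 ± 0.90 (edgeR, adjusted p = 1e-05, 4.3e-05 and 0.00483), and the last missed the threshold when only QSC and Pax7-positive iMPCs were fitted (adjusted p = 0.0714, edgeR). Against mouse 3 alone, on the log2 CPM scale with a prior count of 2, the differences were 8.05, 6.14 and 2.96. Both QSC libraries and ASC were under the expression filter of 0.394 CPM, so Twist2 entered the test only through the libraries where it was high and had to differ there.

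Snai1 (ENSMUSG00000042821), the Snail zinc finger repressor, was at 1.96 and 3.71 CPM in QSC, 19.0 in ASC, 20.5 in Pax7-positive iMPCs, 50.4 in Pax7-negative iMPCs and 51.6 in MEFs. Every library other than QSC lay above both mice. It rose by 2.75 ± 0.66 in ASC, 2.85 ± 0.66 in Pax7-positive iMPCs, 4.15 ± 0.68 in Pax7-negative iMPCs and 4.18 ± 0.68 in MEFs (edgeR, adjusted p = 0.00705, 0.00594, 0.000472 and 0.000413). With Prrx1 and Prrx2, Snai1 was 1 of 3 factors that rose in all 4 comparisons.

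Snai2 (ENSMUSG00000022676), known as Slug, was abundant in every library, at 89.6 and 169.8 CPM in QSC, 85.8 in ASC, 54.1 in Pax7-positive iMPCs, 36.5 in Pax7-negative iMPCs and 76.1 in MEFs. Pax7-negative iMPCs were lowest, also in RPKM. Both QSC libraries lay above all others on the CPM scale, but in RPKM mouse 1 (31.6) lay below ASC (47.0) and MEFs (43.1). Its difference from QSC was -1.83 ± 0.68 there, which missed the threshold (edgeR, adjusted p = 0.0707) but passed in DESeq2 (-1.95, adjusted p = 0.02). In the other comparisons it was -1.26 ± 0.66 for Pax7-positive iMPCs, -0.60 ± 0.64 for ASC and -0.77 ± 0.64 for MEFs.

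Zeb1 (ENSMUSG00000024238), a zinc finger and homeodomain repressor, was at 77.3 and 156.4 CPM in QSC, 54.3 in ASC, 97.9 in Pax7-positive iMPCs, 104.4 in Pax7-negative iMPCs and 49.7 in MEFs. On this scale both iMPC fractions lay between the QSC mice, and ASC and MEFs lay below them; in RPKM, QSC of mouse 1 was lowest (15.7, against 16.2 in MEFs) and Pax7-negative iMPCs highest (35.9). Neither direction passed in any comparison, with differences of -0.26 ± 0.63, -0.16 ± 0.63, -1.10 ± 0.66 and -1.23 ± 0.67 for Pax7-positive iMPCs, Pax7-negative iMPCs, ASC and MEFs. Under library size scaling the first 2 turned to 0.40 and 0.53, which did not pass either.

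Zeb2 (ENSMUSG00000026872), its paralog, was at 164.7 and 221 CPM in QSC, 98.1 in ASC, 130.2 in Pax7-positive iMPCs, 113 in Pax7-negative iMPCs and 44.7 in MEFs. On this scale the MEF library was the lowest, and all 4 other libraries lay below both mice. In MEFs Zeb2 fell by 2.11 ± 0.66 (edgeR, adjusted p = 0.0334), a call that was lost when libraries were scaled by their totals alone (-1.48, adjusted p = 0.128, edgeR). Elsewhere the difference was between -0.57 and -0.97 and did not pass; that of Pax7-positive iMPCs turned to 0.10 under library size scaling. On the RPKM scale MEFs were again lowest in Zeb2 (10.2), but QSC of mouse 1 (23.5) lay below both iMPC fractions (30.6 and 27.2). Transcripts that overlap the Zeb genes on the opposite strand, Gm10125 and Zeb2os, had at most 3.21% and 2.17% of the counts of Zeb1 and Zeb2 in any library, and whether counting used the strand is not stated.

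Prrx1 (ENSMUSG00000026586), a homeodomain factor of limb bud mesenchyme, was at 16.8 and 20.1 CPM in QSC, 72.4 in ASC, 161.5 in Pax7-positive iMPCs, 254 in Pax7-negative iMPCs and 308 in MEFs. The QSC mice were close together, with a ratio of 1.2, and no other library came near them. Prrx1 rose by 1.97 ± 0.57 in ASC, 3.13 ± 0.58 in Pax7-positive iMPCs, 3.78 ± 0.58 in Pax7-negative iMPCs and 4.06 ± 0.59 in MEFs (edgeR, adjusted p = 0.0211, 0.0012, 0.000296 and 0.000159). The overlapping transcript Gm26523, on the same strand, had at most 6.31% of the counts of Prrx1.

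Prrx2 (ENSMUSG00000039476), the paralog of Prrx1, was at 3.62 and 5.11 CPM in QSC, 104 in ASC, 24.8 in Pax7-positive iMPCs, 43.2 in Pax7-negative iMPCs and 158.8 in MEFs. Here ASC lay above both iMPC fractions, which was not so for Prrx1. It rose by 4.57 ± 0.61 in ASC, 2.50 ± 0.59 in Pax7-positive iMPCs, 3.30 ± 0.59 in Pax7-negative iMPCs and 5.18 ± 0.62 in MEFs (edgeR, adjusted p = 5.38e-05, 0.00636, 0.000969 and 2.75e-05). In the same ASC library 6 of the 12 connective tissue markers in the list reached 1 CPM. Among these, Pdgfra and the proteoglycan Dcn were each at 1.08 CPM and the collagen Col3a1 at 607 CPM. Of those below 1 CPM, the proteoglycan Lum was at 0.0431 CPM and Tcf21 at 0 counts. The part of these markers in the Prrx2 level was not tested.

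Osr1 (ENSMUSG00000048387), the odd-skipped factor of muscle connective tissue progenitors, was at 2.67 and 5.88 CPM in QSC, 0.431 in ASC, 11.9 in Pax7-positive iMPCs, 31.9 in Pax7-negative iMPCs and 32.4 in MEFs. ASC lay below the QSC mice and the 3 other libraries above them. It rose by 2.90 ± 0.74 in Pax7-negative iMPCs and 2.92 ± 0.74 in MEFs and fell by 3.30 ± 0.97 in ASC (edgeR, adjusted p = 0.0116, 0.0105 and 0.0231). The ASC call rested on 10 counts and was lost under library size scaling (-2.73, adjusted p = 0.103, edgeR) and in a fit of QSC and ASC alone (adjusted p = 0.0752, edgeR), and against mouse 1 alone the difference was -2.43, beside 3.54 for Pax7-negative iMPCs and 3.56 for MEFs. The difference of 1.48 ± 0.74 in Pax7-positive iMPCs did not pass.

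Osr2 (ENSMUSG00000022330), the other odd-skipped factor, was at 21.8 and 34.5 CPM in QSC, 0.603 in ASC, 0.579 in Pax7-positive iMPCs, 7.87 in Pax7-negative iMPCs and 4.37 in MEFs. Both QSC libraries lay above every other library, on the CPM and the RPKM scale. It fell by 5.59 ± 1.08 in Pax7-positive iMPCs, 5.53 ± 1.08 in ASC and 2.69 ± 0.90 in MEFs (edgeR, adjusted p = 0.00167, 0.00163 and 0.0442). The MEF call was lost under library size scaling (-2.06, adjusted p = 0.151, edgeR), and the difference of -1.84 ± 0.85 in Pax7-negative iMPCs did not pass. Of the 12 connective tissue markers, 9 reached 1 CPM in each QSC library, with Dcn at 205.7 and 312 CPM but Pdgfra at 0.715 and 0.814 CPM in mouse 1 and mouse 3. Their sum was 1218 and 726 CPM in QSC, 7945 in Pax7-negative iMPCs and 15640.0 in MEFs, where the collagen Col1a1 alone held 8924 CPM. Single markers differed in direction. Dpt was at 150.0 and 83.4 CPM in QSC and at most 1.62 CPM elsewhere. Pdgfra, low in QSC, reached 104.6 CPM in Pax7-negative iMPCs and 73.8 in MEFs. The part of these markers in the Osr2 level was not tested.

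The 10 factors were set against each other within a library in the deposited RPKM, which are counts scaled to gene length and library total. In QSC of mouse 1 and mouse 3, Snai2, Zeb1 and Zeb2 made up 80.9% and 82.6% of the summed RPKM of the 10 factors, with Snai2 first at 31.6 and 63.7 RPKM. Their share was 38.6% in ASC, 46.7% in Pax7-positive iMPCs, 23.3% in Pax7-negative iMPCs and 15.8% in MEFs. The Prrx pair moved the other way, from 6.19% and 4.67% in QSC to 54.8% in ASC, 37.3% and 34.8% in the Pax7-positive and Pax7-negative iMPC fractions and 57.4% in MEFs. Prrx2 was the first factor in ASC (101 RPKM) and MEFs (159 RPKM), and Prrx1 in Pax7-positive iMPCs (50.1 RPKM) and Pax7-negative iMPCs (80.8 RPKM). The Twist pair held 0.536% and 0.59% in QSC and 0.486% in ASC, but 5.05% in Pax7-positive iMPCs, 24.7% in Pax7-negative iMPCs and 13.5% in MEFs. These shares have 1 library a group outside QSC and were not tested.

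**Figure D3:**
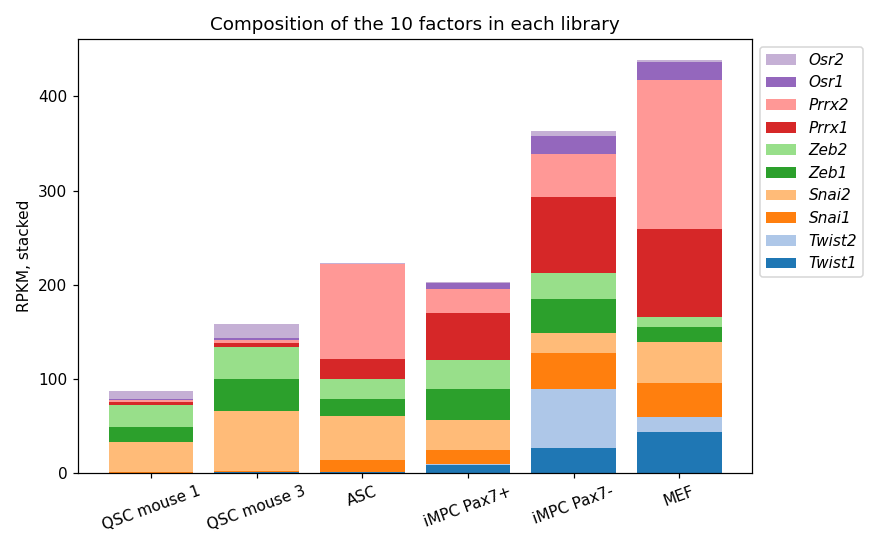
Deposited RPKM of the 10 factors stacked for each library, 1 bar per library. The bars of QSC are mostly Snai2, Zeb1 and Zeb2, those of ASC and MEFs mostly Prrx1 and Prrx2, and Twist2 is a broad band only in Pax7-negative iMPCs; RPKM are scaled to library totals, which places QSC lower against the other libraries than the TMM scale does.

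Within pairs, the balance of paralogs differed between libraries. Snai1 made up 2.66% of the summed RPKM of Snai1 and Snai2 in each QSC mouse (exact 95% counting intervals 1.92% to 3.59% and 2.13% to 3.29%), 21.8% in ASC, 32.2% in Pax7-positive iMPCs, 63.4% in Pax7-negative iMPCs and 45.9% in MEFs. Pax7-negative iMPCs were thus the only library with more Snai1 than Snai2. Twist1 was the larger part of its pair, 73.6% to 94.5%, in 5 libraries, and 30.4% (28.8% to 32.0%) in Pax7-negative iMPCs. Osr1 was 9.51% and 12.7% of its pair in QSC and 38.0% in ASC (19.6% to 59.7%, on few counts), but 94.6% in Pax7-positive iMPCs, 77.7% in Pax7-negative iMPCs and 86.4% in MEFs. Prrx1 was 58.3% and 54.3% of its pair in QSC, 66.4% in Pax7-positive iMPCs and 64.0% in Pax7-negative iMPCs, against 17.4% in ASC and 37.0% in MEFs. The Zeb pair was the steadiest, with Zeb1 between 40.1% and 61.3%, both QSC mice (40.1% and 50.2%) included.

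**Figure D4:**
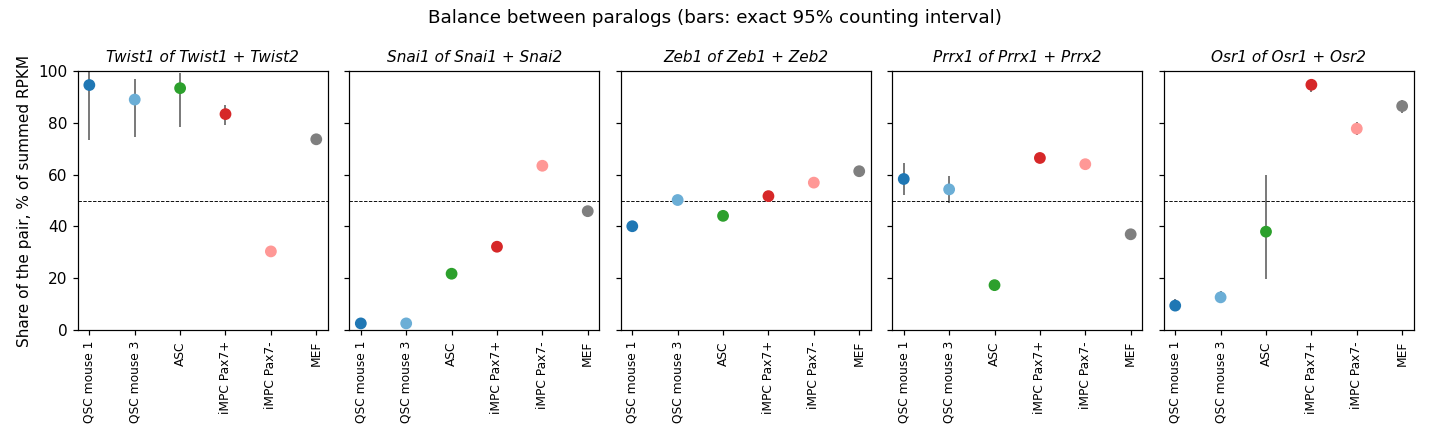
Share of the first paralog in the summed RPKM of each pair, in percent, 1 point per library with exact 95% counting intervals; the dashed line marks an equal share. The Snai1 share runs from 2.66% in QSC to 63.4% in Pax7-negative iMPCs, whereas the Zeb1 share stays between 40.1% and 61.3%.

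The sorted iMPC fractions were compared with each other and with MEFs, 1 of the fibroblast types that the labels name for reprogramming. Each has 1 library, so these comparisons have no replicate check, and a factor was counted when it differed at least 4-fold with at least 5 CPM in the higher library. Between the fractions, 2 of 10 factors passed this size, both lower in Pax7-positive iMPCs, where 4.43% of all genes did (4.3% lower and 0.134% higher). Twist2 was 35.5-fold higher in Pax7-negative iMPCs (exact 95% counting interval 27.5 to 46.8) and Osr2 13.6-fold (8.41 to 23.3). Twist1 was 3.11-fold higher there (2.76 to 3.52), Osr1 2.68-fold (2.38 to 3.04), Snai1 2.46-fold (2.24 to 2.7), Prrx2 1.74-fold and Prrx1 1.57-fold. Zeb1 was close to equal in the fractions, with a ratio of Pax7-positive to Pax7-negative cells of 0.938 (0.892 to 0.986). Snai2 and Zeb2 were higher in Pax7-positive iMPCs, 1.48-fold (1.37 to 1.6) and 1.16-fold (1.1 to 1.21). Connective tissue markers were also higher in Pax7-negative iMPCs (7945 against 2001 CPM summed over 12, with 0 against 1 at 0 counts), with Pdgfra at 104.6 against 2.22 CPM and Dcn at 417 against 12.3 CPM, and their part in these differences was not tested.

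Against MEFs, 3 of 10 factors in Pax7-positive iMPCs passed the size, all lower, where 8.91% of all genes passed it (5.67% lower and 3.24% higher). MEFs had 9.39-fold more Twist2 (7.17 to 12.5), 6.41-fold more Prrx2 (5.94 to 6.93) and 5.27-fold more Twist1 (4.7 to 5.92). Osr2 was 7.55-fold higher in MEFs but under the minimum level. Zeb2 was 2.91-fold higher in Pax7-positive iMPCs (2.73 to 3.11) and Zeb1 1.97-fold (1.84 to 2.1). Pax7-negative iMPCs had 0 of 10 factors past the size against MEFs, where 7.11% of all genes passed it. Snai1 and Osr1 were nearly equal there, with ratios of Pax7-negative iMPCs to MEFs of 0.976 (0.906 to 1.05) and 0.987 (0.899 to 1.08). Closest to the size were Twist2, 3.79-fold higher in Pax7-negative iMPCs (3.43 to 4.19), and Prrx2, 3.68-fold higher in MEFs (3.46 to 3.92). In ASC 4 of 10 factors were past the size against MEFs, all lower, beside 8.78% of all genes (4.07% lower): Twist2 by 210.4-fold on 2 counts (57.9 to 1742), Osr1 by 75.1-fold, Twist1 by 42.0-fold and Prrx1 by 4.25-fold. ASC and MEFs differed little in Zeb1 and Snai2, with ratios of ASC to MEFs of 1.09 (1.01 to 1.18) and 1.13 (1.06 to 1.2).

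By library, 5 of 10 factors had their highest CPM in MEFs (Twist1, Snai1, Prrx1, Prrx2 and Osr1), beside 16.6% of all genes. In the deposited RPKM it was 3 of 10, beside 19.2% of all genes. Snai1 (37.6 against 36.6 RPKM) and Osr1 (19.3 against 18.5 RPKM) were then higher in Pax7-negative iMPCs. QSC of mouse 3 held the highest CPM of 4 factors (Snai2, Zeb1, Zeb2 and Osr2; 3 in RPKM, where Zeb1 was at 35.9 in Pax7-negative iMPCs against 33.8), beside 22.3% of all genes, and Pax7-negative iMPCs that of Twist2, beside 11.7%. None was highest in QSC of mouse 1, ASC or Pax7-positive iMPCs, which held the highest level of 16.8%, 16.4% and 16.2% of all genes.

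All 10 factors were higher in QSC of mouse 3 than of mouse 1, beside 47.7% of all genes tested. The ratio ran from 1.2 for Prrx1 (exact 95% counting interval 1.04 to 1.38) to 2.2 for Osr1 (1.6 to 3.07) and, on 1 and 4 counts, 3.79 for Twist2 (0.375 to 187), with a median of 1.83. For 9 of 10 the interval lay above 1, which covers counting error only. By marker list, 5 of 9 muscle lineage markers were higher in mouse 3, Pax7 among them (159.7 against 34.5 CPM). The other 4, Myod1, Myog, Itga7 and Chrna1, were higher in mouse 1, Myog at 188.9 against 4.07 CPM and Myod1 at 1836 against 629.6. The summed level of the 9 was 4984 CPM in mouse 3 and 4797 in mouse 1. Of 12 connective tissue markers, 5 were higher in mouse 3, with a sum of 726 against 1218 CPM. So were 5 of 5 tendon markers (135 against 82.3 CPM), 3 of 10 immune markers (149.7 against 265.8 CPM), 1 of 10 endothelial and 0 of 6 erythroid markers. Their part in this difference was not tested.

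Profiles over the 6 libraries were compared by the root mean square (RMS) difference of log2 CPM, each profile centred on its own mean, as a description without a test. Among the 10 factors the closest pair was Snai1 and Prrx1 (0.39), which are not paralogs, followed by Zeb1 and Zeb2 (0.42). The paralogs Prrx1 and Prrx2 differed by 1.12, Twist1 and Twist2 by 1.43, Snai1 and Snai2 by 2.29 and Osr1 and Osr2 by 2.7. The RMS difference grows with the size of changes, which the Pearson correlation of the same profiles does not. That correlation was 0.96 for the Twist pair, 0.83 for Prrx, 0.81 for Zeb, 0.22 for Osr and -0.69 for Snai1 and Snai2. Among all genes tested, the nearest to Twist1 were Tmem74 and Sfrp1 (0.44 each), a secreted Wnt antagonist, and Tfap2a (0.51). Nearest to Twist2 were Fgf10 (0.44), a growth factor of mesenchyme, Pi15 (0.67) and Plac8 (0.89). The genes nearest to Snai1 were Vangl1 (0.21), Clip2 (0.25) and Mmp11 (0.27), and those nearest to Prrx1 were Crabp2 (0.25), which binds retinoic acid, G630090E17Rik and Galnt9 (0.26 each). For Prrx2 they were 7530420F21Rik (0.31), Fsd1 (0.38) and Kif1a (0.41), for Osr1 Shc2 (0.41), Vill (0.65) and Chst1 (0.68), and for Osr2 Phf11d (0.3), Mmp8 (0.36) and Pcsk5 (0.41). Snai2, Zeb1 and Zeb2 varied least of the 10 factors, by 4.65-fold, 3.14-fold and 4.94-fold between their highest and lowest CPM. They had nearest genes at 0.14 (Vezf1), 0.12 (0610010K14Rik) and 0.1 (Zrsr1 and Rell1). Several of these genes were at 0 counts in QSC, so their profiles there rest on the prior count.

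The E proteins that Twist factors pair with were expressed in every library. Of 7 dimer partners and Id inhibitors, 2 rose in Pax7-positive iMPCs and 1 fell, 1 rose in Pax7-negative iMPCs, 1 rose in ASC and 1 fell in MEFs. The shares of all genes called, 20.6%, 18.6%, 20.1% and 19.4% in the same order, are the background for this and the other lists. Tcf3, which encodes E2A, was at 43.3 and 46.2 CPM in QSC, 166 in ASC, 247.5 in Pax7-positive iMPCs, 198 in Pax7-negative iMPCs and 138 in MEFs, and rose in ASC (1.89 ± 0.57) and in either iMPC fraction (2.47 ± 0.57 in Pax7-positive cells, 2.14 ± 0.57 in Pax7-negative cells); in MEFs 1.63 ± 0.57 did not pass (edgeR, adjusted p = 0.0534). Tcf12, encoding HEB, rose in Pax7-positive iMPCs (1.94 ± 0.57), Id4, an Id inhibitor of E proteins, fell there (-2.58 ± 0.75), and Tcf4 fell in MEFs (-2.17 ± 0.68; edgeR, adjusted p = 0.0227, 0.0212 and 0.0328). Whether these calls differ between groups was not tested.

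Of 17 corepressors of Snail and Zeb, 2 rose in Pax7-positive iMPCs and 0 fell; the numbers were 1 and 0 in Pax7-negative iMPCs, 1 and 0 in ASC, and 1 and 2 in MEFs, beside 20.6%, 18.6%, 20.1% and 19.4% of all genes called in either direction, each above the share called in the list. Ajuba, a LIM protein that Snail recruits, rose in all 4, from 7.44 and 7.6 CPM in QSC to 39.9 in Pax7-positive iMPCs, 58.0 in Pax7-negative iMPCs, 109 in ASC and 123.6 in MEFs. Ctbp1 and Ctbp2, the corepressors that Zeb proteins bind, passed the test in no comparison, with Ctbp1 at 161 and 166 CPM in QSC and 243 to 345 CPM elsewhere. Lmcd1, another LIM protein, fell in MEFs (-2.45 ± 0.71). Of 12 matched regulators of Snail and Twist stability, 1 rose in Pax7-positive iMPCs and 1 fell, with 0 and 1 in Pax7-negative iMPCs, 2 and 1 in ASC and 0 and 1 in MEFs. Fbxo11, an F-box protein known to target Snail, fell in all 4 comparisons, from 112 and 109 CPM in QSC to between 21.7 and 25.9 CPM. Fbxw7, another F-box protein, rose in ASC (2.28 ± 0.64), to 56.8 CPM from 11.1 and 12.4.

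Among genes that epithelial-to-mesenchymal transition is known to silence, Cdh1, encoding E-cadherin, had 0 to 12 counts, at most 0.405 CPM, and Epcam had at most 0.572 CPM; neither passed in any comparison, and a difference was not detectable at this depth. Of 25 epithelial genes 18 were tested; 1 rose in Pax7-positive iMPCs and 2 fell, with 3 and 1 in Pax7-negative iMPCs, 4 and 0 in ASC and 2 and 1 in MEFs, beside 20.6%, 18.6%, 20.1% and 19.4% of all genes called in either direction. Not all were low: plakoglobin (Jup) was between 30.9 and 213 CPM in the 6 libraries, and Grhl1, a grainyhead factor, was at 38.9 and 37.8 CPM in QSC, both named after their values were seen. Those that rose included the keratin Krt19, at 33.4 CPM in Pax7-negative iMPCs and 84.5 CPM in MEFs against 0.0477 and 0.317 CPM in QSC (7.46 ± 0.88 and 8.80 ± 0.92). Grhl3, of the same family as Grhl1, was not read in QSC and reached 3.06 CPM in Pax7-positive iMPCs and 3.27 in ASC, at least 43.9-fold and 47.0-fold higher against a floor of 3 counts summed over QSC. It rose in Pax7-negative iMPCs as well, to 0.574 CPM.

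Of 24 mesenchymal genes that the same transition is known to raise, 18 rose and 0 fell in MEFs, 11 and 1 in Pax7-negative iMPCs, 5 and 3 in Pax7-positive iMPCs and 4 and 5 in ASC. The medians were 2.76, 1.53, 0.18 and 0.13, beside 0.00, 0.15, -0.03 and 0.00 over all genes. Fibronectin (Fn1) rose in all 4, from 10.5 and 8.19 CPM in QSC to 215 in Pax7-positive iMPCs, 667 in Pax7-negative iMPCs, 404 in ASC and 3004 in MEFs. Collagen Col1a1 reached 1377 CPM in Pax7-negative iMPCs and 8924 in MEFs, against 31.2 and 15.7 in QSC, while it was at 66.5 in Pax7-positive iMPCs and 4.31 in ASC and did not pass there. N-cadherin (Cdh2) rose in ASC (5.43 ± 0.63, to 477 CPM), MEFs (4.25 ± 0.60, to 210.3 CPM) and Pax7-negative iMPCs (2.58 ± 0.58, to 66.4 CPM), and was at 18.4 CPM in Pax7-positive iMPCs against 8.96 and 13.2 in QSC. Vimentin (Vim) was between 767 and 1485 CPM in all 6 libraries and passed in no comparison.

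A list of 20 relatives held 14 tested genes. It was drawn from the wider families of the factors, apart from the forkhead factors Foxc1 and Foxc2. In Pax7-positive iMPCs 2 rose and 2 fell. The numbers were 4 and 2 in Pax7-negative iMPCs, 3 and 2 in ASC and 5 and 2 in MEFs. Foxc2 was among the rises in Pax7-negative iMPCs, ASC and MEFs, and Foxc1 in MEFs. Hand1, a Twist-family factor of the heart and limb, had 0 counts in QSC and ASC, 45 in Pax7-positive iMPCs, 1339 in Pax7-negative iMPCs and 10 in MEFs. In Pax7-negative iMPCs it was at least 649.5-fold higher than in QSC, at 45.2 CPM, so that with Twist2 it was a second factor of this family with its highest level there. Tcf15, a somite factor, fell in all 4 comparisons from 16.5 and 1.63 CPM in QSC, to 0 counts in MEFs. The Snail paralog Snai3 rose in ASC, to 1.38 CPM from 0 counts in QSC (edgeR, adjusted p = 0.046). Scx, the tendon factor scleraxis, rose in ASC (3.23 ± 0.61), to 121.5 CPM from 11.3 and 14.6 in QSC; in MEFs its difference of 1.04 ± 0.61 did not pass, and whether the groups differ was not tested. Tcf21 was at most 0.723 CPM. Genes outside the 18 and 14 tested were too low in every library to enter the test. Some that entered were under the filter in both QSC libraries, Hand1, Snai3, Krt19 and Grhl3 among them. They entered only through libraries where they were high and had to differ there.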

How the data were processed

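For each of the 6 libraries the authors deposited a table of unnormalised gene counts, and for the series 1 table of RPKM with gene symbols. The submitters' processing notes name mm9 and, without roles, Picard 1.100, HTSeq 0.6.0, STAR 2.3.0 and edgeR; annotation and strand setting are not stated there. The deposited RPKM equal counts scaled to library totals and gene length (largest relative deviation 9.67e-15), so they carry no correction for composition.

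The deposited counts went into edgeR 4.0.16 (R 4.3.3): its default filter (17116 genes), TMM scaling, 1 coefficient per group over all 6 libraries, two-sided quasi-likelihood F tests against QSC, and Benjamini-Hochberg adjustment over all genes at 0.05. Only QSC has replicates, which leaves 1 residual degree of freedom, so all spread comes from 2 QSC libraries. Each gene's spread was drawn toward that of all genes (16.3 prior degrees of freedom). The p-values and SEs of a factor thus rest mostly on spread pooled over genes. SEs follow from the F statistic. Single libraries were compared by size (4-fold, 5 CPM, prior count 2), with exact 95% intervals that cover counting error only. The script was tested on simulated data. The members and lists were chosen with earlier results of these data known. Named genes were the 10 factors, 13 others fixed by name and, from each list, the 2 called genes with the largest change. Cell type markers, overlapping transcripts, Jup, Grhl1, Foxc1 and Foxc2 were named outside that rule, after their values were seen. Per factor, the 3 nearest profiles were named. No mm9 coordinates are used; windows ahead of gene starts are RefSeq's, on GRCm38.p6. Alternatives were DESeq2 1.42.0, library size scaling, other filters, a preset dispersion, 2-group fits and each mouse left out.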

Additional observations from a re-analysis of the deposited data

How the results depend on the processing

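The number of factors called against QSC stayed within 1.5 times under DESeq2, library size scaling, a filter of 5 CPM, no filter, a preset coefficient of variation of 0.4 and 2-group fits: 5 to 6 in Pax7-positive iMPCs, 6 to 8 in Pax7-negative iMPCs, 4 to 5 in ASC and 6 to 8 in MEFs. Under library size scaling, 14.8%, 14.4%, 13.8% and 13.4% of all genes were called in the same order. With the preset coefficient the shares were 38.4%, 37.0%, 38.2% and 37.9%. These settings gave the lowest and the highest shares. No factor's call was reversed. Library size scaling raised the median of all genes against QSC by 0.59 to 0.71 (log2) and ended 3 calls, all of lower levels. A 2-group fit ended 2 calls, DESeq2 added 1 and the preset dispersion 2. Leaving out either QSC mouse leaves no residual degree of freedom and hence no test. The log2 differences then kept the direction of all 25 calls, which is no separate check, since the calls used the same mice. With a size of 2-fold in place of 4-fold, 5 factors were past it between the iMPC fractions, beside 11.9% of all genes. Against MEFs, 6 were past it for Pax7-positive iMPCs (20.3% of all genes) and 5 for Pax7-negative iMPCs (15.9%). In the deposited RPKM, 3 factors were highest in MEFs in place of 5, beside 19.2% of all genes. By raw counts, without gene length, Prrx1 was 66.0% of its pair in MEFs and 41.0% in ASC in place of 37.0% and 17.4%. No paired analysis was possible because only QSC has more than 1 library and no number pairs samples across groups. Depth limits Twist2 in QSC and ASC, where 1 to 4 counts were read, and Osr1 and Osr2 in ASC.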
